A study of Homo sapiens with 18 samples.

Results

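The RNA of LNCaP cells that carried a short hairpin RNA against HOXB13 was compared between an inducible rescue with the HOXB13 3A mutant (3A) and an empty vector (EV), both after 24 h with 10 nM of the synthetic androgen R1881. LNCaP is an established human prostate cancer line that responds to androgen. In 3A, threonines 8 and 41 and serine 31 of HOXB13 are changed to alanine, which cannot be phosphorylated. The comparison was taken from the labels and holds 3 libraries of 3A and 3 of EV, 6 of the 18 libraries of the study. The 12 other libraries are cells with wild-type HOXB13 (WT) and R1881, and the 3A, WT and EV cells with vehicle, which was 0.1% ethanol. All cells had the hairpin and were deprived of androgen for 48 h before treatment, in 2% serum stripped of steroids with charcoal. EV cells are thus hairpin cells without a rescue. A gene count adds up the RNA that the hairpin targets and the RNA of the rescue, the protein was not measured here, and hairpin-free cells were not analysed here.

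HOXB13 is a homeobox transcription factor of the prostate and the distal gut that takes part in the response of prostate cells to androgen. Other programmes appear below. Genes for DNA replication are switched on at the start of S phase by E2F factors, and genes for mitosis are switched on later by complexes that bind CHR and CCAAT elements in their promoters. ATF4 is a transcription factor whose protein is made when amino acids are short or the endoplasmic reticulum is under stress, and it raises genes for amino acid uptake, serine synthesis and the charging of transfer RNA.

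Total counts were 23488198, 29452311 and 28980604 in 3A libraries 1, 2 and 3, against 23605689, 23532638 and 22855537 in EV libraries 1, 2 and 3. Genes with any count numbered 21784, 22359 and 21253 in 3A libraries 1, 2 and 3, against 22087, 22625 and 22256 in EV libraries 1, 2 and 3. Of 58735 genes in the file, 17162 were tested. Within each of the 2 groups no library was a copy of another: the chi-square of paired replicates over its degrees of freedom was 20 to 30.7 within 3A and 9.26 to 11.8 within EV. Whether replicates came from separate cultures is not stated in the labels, and the p-values therefore reflect only library-to-library spread, possibly of technical origin. In CPM, counts scaled to a fixed library total, the luminal prostate marker KLK3 was at 3070 to 3890 in 3A and 4180 to 4780 in EV, and the luminal keratin KRT8 was at 1800 to 2250 in 3A and 1730 to 2210 in EV. The basal markers KRT5 and TP63, the endothelial markers PECAM1 and CDH5 and the immune markers PTPRC and CD3E had 0 counts in all 6 libraries. Other markers of these cell types were present: the endothelial marker VWF was at 3.79 to 5.19 CPM in 3A and 3.05 to 3.85 in EV, and the basal keratin KRT14 at 0.383 to 0.985 CPM in 3A and 0.212 to 0.613 in EV. The basal keratin KRT15 was at 0.0345 to 0.272 CPM in 3A and 0.085 to 0.175 in EV, and the immune markers LYZ and CD68 were at 0 in 3A and at most 0.127 and 0.0438 CPM in EV. The part of other cell types in the results was not tested. The stromal markers summed to 14.2 to 21.2 CPM in 3A and 13.6 to 19.2 in EV, nearly all of it COL1A1. Levels below are CPM scaled by TMM, a library scaling by the trimmed mean of the genes, and differences are log2 fold changes of 3A over EV ± standard error, called at an adjusted p under 0.05 in edgeR.

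The targeted gene was read first. HOXB13 (ENSG00000159184, chromosome 17, 48724763 to 48729178, minus strand, hg38) was at 578, 506 and 436 CPM in 3A, against 421, 405 and 424 CPM in EV. Each 3A library lay above each EV library, the lowest of them by little. The means were 507 ± 71.0 CPM in 3A and 416 ± 9.87 CPM in EV (SD, n = 3 each), and the difference of 0.28 ± 0.11 was not called by edgeR (adjusted p = 0.119). It was called with a correction for the GC content and length of genes (0.38, edgeR adjusted p = 0.0215), and over all alternatives the adjusted p ran between 0.00885 and 0.403. In vehicle the libraries were at 668, 870 and 739 CPM in 3A and 538, 497 and 564 CPM in EV, a called difference of 0.51 (edgeR adjusted p = 0.00482).

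**Figure D1:**
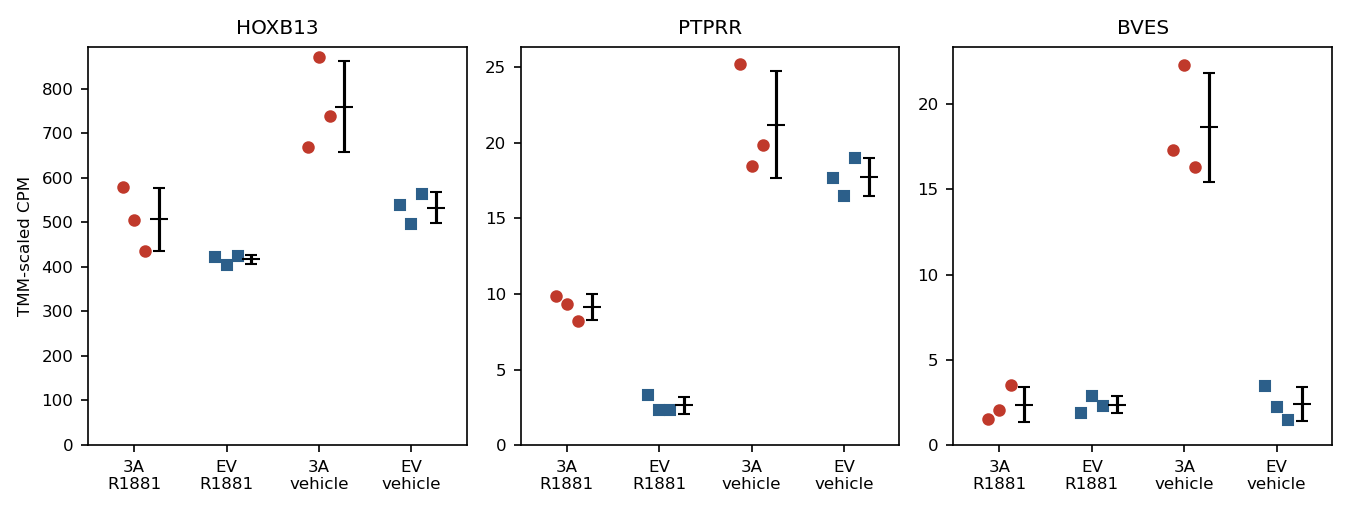
TMM-scaled CPM on a linear axis from 0 for HOXB13, PTPRR and BVES in each library of 4 groups, 3A and EV with R1881 and 3A and EV with vehicle. Points are libraries, and the bar beside them is the mean ± SD (n = 3). PTPRR stands apart between 3A and EV with R1881, and BVES in vehicle.

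With R1881, 754 genes were higher in 3A (4.39% of the genes tested) and 697 were lower (4.06%), 8.45% in either direction, by edgeR's quasi-likelihood test. Of these, 236 were at least 2-fold higher and 130 at least 2-fold lower. Protein-coding genes made up 703 of the higher and 558 of the lower genes. The 3A and EV libraries did not overlap in 743 of the higher and 690 of the lower genes. Separate groups are thus the rule among called genes and no trait of the members named below. The counts moved with single libraries. The number of higher genes was 418, 435 and 446 without EV library 2, EV library 3 and 3A library 3. The number of lower genes was 448, 449 and 387 without EV libraries 1, 2 and 3, and 449 and 367 without 3A libraries 2 and 3. The same call was made in each of the 6 fits that left out 1 library for 339 of the higher and 249 of the lower genes. Same-numbered libraries of the 2 groups deviated together weakly (correlations of 0.105 to 0.154 across genes). With the replicate number as a block 1252 genes were higher (7.3%) and 1157 lower (6.74%). In bulk RNA, fewer cells of a kind, such as cells in one phase of the cell cycle, and less RNA per cell cannot be told apart.

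The largest rises among called protein-coding genes were led by CBLN2, which encodes cerebellin 2, a secreted organiser of synapses (ENSG00000141668, chromosome 18, 72536680 to 72638521, minus strand). It had 11.1, 11.9 and 10.9 CPM in 3A, against 2.12, 2.02 and 1.96 CPM in EV. The groups were far apart, with little spread inside either (2.47 ± 0.16, edgeR adjusted p = 8.04e-09). NEIL3, a DNA glycosylase that repairs oxidised bases and crosslinks, had 10.2, 9.03 and 8.34 CPM in 3A, against 2.98, 1.08 and 2.75 CPM in EV (2.02 ± 0.25, edgeR adjusted p = 1.67e-05). PTPRR, a phosphatase of MAP kinases, had 9.88, 9.34 and 8.19 CPM in 3A, against 3.29, 2.29 and 2.33 CPM in EV (1.79 ± 0.18, edgeR adjusted p = 2.35e-06). For these genes the EV libraries were all low and the 3A libraries all high. The rule that named the largest rises and falls required groups without overlap.

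Genes of the mitotic spindle were among the other large rises. KNL1, the scaffold of the outer kinetochore, had 15.2, 16.9 and 15.6 CPM in 3A, against 6.18, 4.67 and 4.19 CPM in EV (1.66 ± 0.18, edgeR adjusted p = 5.65e-06). The spindle motors KIF18A (1.59 ± 0.20) and KIF15 (1.58 ± 0.19) were raised by similar amounts. MYB, a proto-oncogene transcription factor, had 1.90, 1.98 and 1.55 CPM in 3A, against 0.406, 0.494 and 0.745 CPM in EV (1.72 ± 0.30, edgeR adjusted p = 0.000813). ASB2, a subunit of a ubiquitin ligase, was at 1.28 to 2.36 CPM in 3A and 0.271 to 0.494 CPM in EV (2.12 ± 0.40). DHRS2, a short-chain dehydrogenase, was at 2.27 to 8.10 CPM in 3A and 0.745 to 1.62 CPM in EV (2.10 ± 0.40). In both genes the 3A libraries differed much among themselves.

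Among the 15 largest rises, 3 lost their call in 1 or more of the fits that left out 1 library. STC1, a secreted glycoprotein hormone (chromosome 8), had 3.59, 12.6 and 4.55 CPM in 3A, against 0.541, 2.79 and 1.72 CPM in EV (2.04 ± 0.57, edgeR adjusted p = 0.0296), with the highest library of each group numbered 2. Its call was lost without EV library 1 or 3 or 3A library 2. ID1, an inhibitor of helix-loop-helix factors, had 5.0, 0.868 and 1.91 CPM in 3A, against 0.722, 0.854 and 0.373 CPM in EV (1.97 ± 0.58, edgeR adjusted p = 0.0380). The lowest 3A library was just above the highest EV library, and only without 3A library 2 was the call kept. TERT, the catalytic subunit of telomerase, had 1.55, 3.23 and 2.17 CPM in 3A, against 0.902, 0.854 and 0.559 CPM in EV (1.58 ± 0.36, edgeR adjusted p = 0.00743). TERT was no longer called when EV library 3 or 3A library 2 was left out. The other 12 kept their call without any 1 library. ALDOA (2.02), ZNF695 (1.87) and FAM72A (1.77) are uncertain, since 71.8%, 34.9% and 80.7% of the 50-base windows of their transcripts also occur in transcripts of other genes.

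The largest falls were led by LPO, which encodes lactoperoxidase, a secreted antimicrobial enzyme (ENSG00000167419, chromosome 17, 58218548 to 58268518, plus strand). It had 0.354, 0.347 and 0.325 CPM in 3A, against 2.30, 2.07 and 2.00 CPM in EV (-2.62 ± 0.29, edgeR adjusted p = 5.96e-06). BCL11B, a zinc finger transcription factor best known from T cell development, had 1.06, 0.903 and 0.469 CPM in 3A, against 4.15, 3.19 and 5.59 CPM in EV (-2.42 ± 0.32, edgeR adjusted p = 3.81e-05). DMGDH, a mitochondrial enzyme of choline breakdown, had 1.77, 0.660 and 1.08 CPM in 3A, against 5.82, 4.36 and 5.64 CPM in EV (-2.19 ± 0.30, edgeR adjusted p = 6.38e-05). The gap between the groups, which the naming rule required, was wide in each of these genes.

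Other large falls were named by the same rule. CD55, which protects cells from complement, had 2.70, 2.47 and 2.20 CPM in 3A, against 10.3, 8.18 and 7.08 CPM in EV (-1.80 ± 0.20, edgeR adjusted p = 5.65e-06). S100P, a calcium-binding protein, had 5.14, 3.4 and 2.67 CPM in 3A, against 12.6, 16.2 and 15.6 CPM in EV (-1.99 ± 0.23, edgeR adjusted p = 1.14e-05). PRSS1, a trypsinogen, had 2.39, 4.62 and 6.10 CPM in 3A, against 17.3, 17 and 13.8 CPM in EV (-1.86 ± 0.31, edgeR adjusted p = 0.000469). The siderophore-binding lipocalin LCN2 (-1.80 ± 0.33), the collagen chain COL16A1 (-1.91 ± 0.31), the fucosyltransferase FUT3 of Lewis antigens (-1.55 ± 0.28) and the cyclic nucleotide phosphodiesterase PDE2A (-1.5 ± 0.29) belonged to the same 15. All 15 kept their call without any 1 library. PSENEN (-2.08), TAF10 (-1.65) and FLRT1 (-1.74) are uncertain, since 56.5%, 51.2% and 25.3% of their exon bases overlap another gene and the strand setting of the counting is not given in the sources used here. The values of all 30 genes by library show no overlap between 3A and EV, which the naming rule required.

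**Figure D2:**
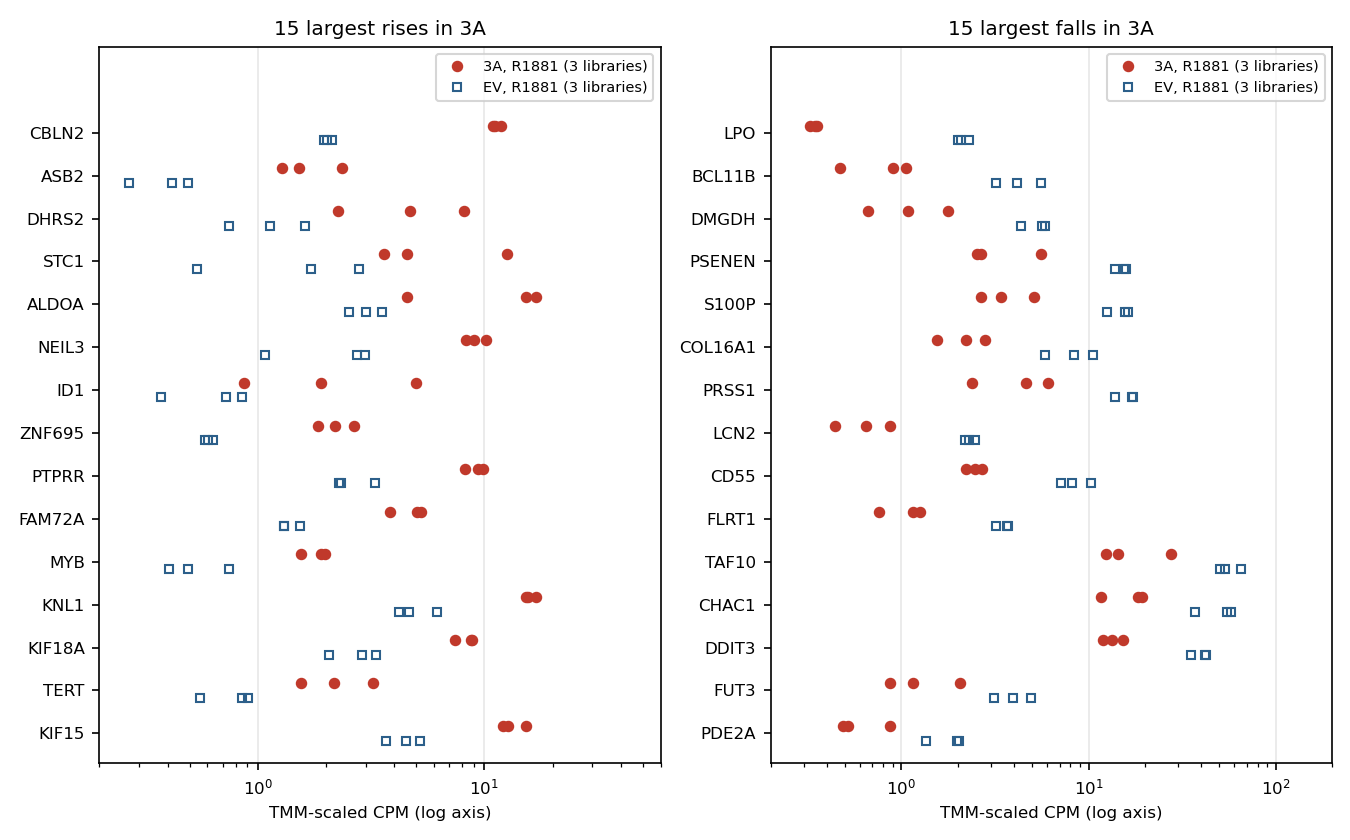
TMM-scaled CPM on a log axis in each of the 6 libraries for the 15 largest rises (left) and the 15 largest falls (right), 3A as filled circles and EV as open squares below them. The 3A libraries of CBLN2, PTPRR and KNL1 lie close together, whereas those of STC1, ALDOA and ID1 spread widely.

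Genes of cell division were higher in 3A as a group, in a list chosen, as all lists here, with earlier results of these data known. Of 22 mitotic genes, 22 were called higher and 0 lower, with a median of 1.30 and a range of 0.85 to 1.55, beside a median of -0.00 over all genes tested. KIF11, the motor that separates the spindle poles, had 41.5, 36.6 and 33.7 CPM in 3A, against 16.6, 12.1 and 13.4 CPM in EV (1.41 ± 0.12, edgeR adjusted p = 8.23e-07). TOP2A, the topoisomerase that untangles sister chromosomes, had 110, 121 and 99.5 CPM in 3A, against 48.3, 32.4 and 38.5 CPM in EV (1.47 ± 0.14, edgeR adjusted p = 1.94e-06). CENPF, a kinetochore protein, had 80.7, 81.8 and 74.3 CPM in 3A, against 32.4, 24.6 and 34.3 CPM in EV (1.37 ± 0.14, edgeR adjusted p = 2.35e-06). In these genes every 3A library was above every EV library, as in nearly all genes called higher. EV library 2 was the lowest of the 6. MKI67, the proliferation marker Ki-67, averaged 83.0 ± 15.8 CPM in 3A and 33.5 ± 3.61 CPM in EV (SD, n = 3 each; 1.31, edgeR adjusted p = 1.24e-05). The smallest change of the list was that of AURKB, the kinase of the chromosomal passenger complex (0.85). Leaving out 1 library left 19 to 21 members called. NUSAP1, whose exons overlap other genes over 62.2% of their bases, was the member lost under the GC and length correction (edgeR adjusted p = 0.0546).

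Genes of S phase entry and DNA replication were higher too. Of 25 such genes 24 were called higher and 0 lower, with a median of 0.87 and a range of 0.51 to 1.33. UHRF1, which carries DNA methylation over to new strands, had 43.6, 40.8 and 37.5 CPM in 3A, against 19.4, 16.1 and 15.9 CPM in EV (1.24 ± 0.13, edgeR adjusted p = 3.63e-06). MCM4, a subunit of the replicative helicase, had 192, 149 and 148 CPM in 3A, against 88.7, 64.6 and 73.4 CPM in EV (1.11 ± 0.14, edgeR adjusted p = 1.85e-05). CDC6, which loads that helicase onto origins, had 80.8, 60.5 and 73.7 CPM in 3A, against 38.2, 29.2 and 31.3 CPM in EV (1.12 ± 0.14, edgeR adjusted p = 2.87e-05). The groups did not overlap in these genes, as in nearly all genes called higher. E2F1 itself averaged 67.9 ± 6.32 CPM in 3A and 37.1 ± 6.39 CPM in EV (SD, n = 3 each; 0.87, edgeR adjusted p = 0.00045). The member without a call was POLA1, the catalytic subunit of the polymerase that starts new strands (0.51, edgeR adjusted p = 0.0942). Leaving out any 1 library left 24 members called. Of the 50-base windows of UHRF1, 32.0% also occur in other transcripts, so its level is uncertain.

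Further lists of chromosome biology, put together after the values of these fits had been seen, are given as a description. Of 23 homologous recombination and Fanconi genes 17 were called higher and 0 lower (median 1.08), among them the recombination mediator BRCA2 (1.47), FANCI (1.28) and the nuclease EXO1 (1.49). BRCA2 had 19.0, 19.2 and 16.3 CPM in 3A, against 8.35, 4.72 and 6.57 CPM in EV. Of 23 kinetochore and centromere genes 17 were higher and 0 lower (median 0.86). Of 20 condensin and cohesin genes 13 were higher and 0 lower (median 0.54). Among condensin subunits NCAPG (1.39) and SMC4 (1.29) were higher, and NCAPH2 (0.19) and NCAPD3 (-0.22) were not called. Among cohesin genes PDS5B (0.62) and SMC3 (0.40) were higher, and STAG2 (0.26) was not called. Among 19 regulators of G1 phase, 5 were higher and 1 lower, or 8 and 1 with the replicate block. The repressive E2F factors E2F7 (1.53) and E2F8 (1.5) were higher, as were E2F2 (1.21), the pocket protein RBL1 (0.94) and the CDK inhibitor CDKN2C (0.92). The CDK inhibitor CDKN1B, known as p27, was lower (-0.31, edgeR adjusted p = 0.0373), a call that was kept without EV library 3 or 3A library 1 and lost without any other library. The D-type cyclin CCND1 was at 0.20, the inhibitor CDKN1A at -0.23 and RB1 at 0.40, none of them called. SKP2, which marks CDKN1B for destruction, averaged 38.6 ± 3.82 CPM in 3A and 25.2 ± 2.40 CPM in EV (SD, n = 3 each; 0.62, edgeR adjusted p = 0.00237).

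The promoters of these groups were read in the RefSeq table (GRCh38.p14, the 250 bases before each gene's start), which held 10689 of the protein-coding genes tested, 18 of the mitotic genes, 21 of the replication genes and 16 of the ATF4 genes described below. Each motif was searched on both strands, and a match is a string of letters, not a shown binding site. The calls moved with the GC content of exons, as given below, and no background matched for base composition was used. The part of base composition in the share of any motif was not tested. TTTGAA, the letters of a CHR element, occurred in 8.47% of all these promoters, in 18.8% of 585 promoters of genes called higher, in 5.99% of 451 of genes called lower and in 10 of the 18 mitotic promoters. TTTCCCGC or TTTGGCGC, the letters of an E2F site, occurred in 3.12% of all promoters, 7.69% of those called higher, 1.33% of those called lower and 10 of the 21 replication promoters. CCAAT occurred in 35.1% of all promoters, in 45.3% of those called higher, in 32.6% of those called lower and in 15 of the 18 mitotic promoters. CAATAAA, the core of the sequence that HOXB13 prefers, occurred in 2.06% of all promoters, 1.54% of those called higher, 1.33% of those called lower and 0 of those of the 3 lists. Shown for the 2 lists are promoters of members named above or leading among those with a match, with the CHR letters in capitals in KIF11 (chr10:92592880-92593129, plus strand) and TOP2A (chr17:40417897-40418146, minus strand) and the E2F letters in capitals in UHRF1 (chr19:4909251-4909500, plus strand) and MCM3 (chr6:52284743-52284992, minus strand), each read 5′ to 3′ on the strand of the gene.
KIF11: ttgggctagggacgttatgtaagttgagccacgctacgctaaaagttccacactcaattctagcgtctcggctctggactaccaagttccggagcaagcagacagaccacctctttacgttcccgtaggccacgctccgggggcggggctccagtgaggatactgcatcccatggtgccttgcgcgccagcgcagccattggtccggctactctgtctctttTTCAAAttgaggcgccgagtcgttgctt
TOP2A: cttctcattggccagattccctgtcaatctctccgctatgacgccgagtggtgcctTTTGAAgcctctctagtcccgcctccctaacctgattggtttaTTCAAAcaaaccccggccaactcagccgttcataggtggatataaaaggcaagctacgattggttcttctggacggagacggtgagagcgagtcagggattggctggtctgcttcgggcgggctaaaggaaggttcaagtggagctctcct
UHRF1: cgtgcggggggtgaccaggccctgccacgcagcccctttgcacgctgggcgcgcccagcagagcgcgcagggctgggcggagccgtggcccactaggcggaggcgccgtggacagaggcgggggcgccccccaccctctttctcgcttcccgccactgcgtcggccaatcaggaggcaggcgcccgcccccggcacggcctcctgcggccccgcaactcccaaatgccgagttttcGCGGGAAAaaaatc
MCM3: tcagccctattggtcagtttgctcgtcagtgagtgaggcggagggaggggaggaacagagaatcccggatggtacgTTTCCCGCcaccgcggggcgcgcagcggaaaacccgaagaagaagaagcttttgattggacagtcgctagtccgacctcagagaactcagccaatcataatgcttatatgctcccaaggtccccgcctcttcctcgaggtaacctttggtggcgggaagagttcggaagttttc
In KIF11 the first CHR base stands 28 bases before the start and in TOP2A the matches begin 194 and 151 bases before it, whereas the E2F letters begin 14 bases before the start of UHRF1 and 174 before that of MCM3. MCM3, a further subunit of the helicase, averaged 82.0 ± 6.43 CPM in 3A and 47.5 ± 3.34 CPM in EV (SD, n = 3 each; 0.79, edgeR adjusted p = 3.05e-05).

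The genes of the ATF4 response were lower in 3A. Of 20 members 17 were called lower and 0 higher, with a median of -0.81 and a range of -1.60 to 0.06. TRIB3, a pseudokinase that ATF4 induces (ENSG00000101255, chromosome 20, 362835 to 397559, plus strand), had 149, 163 and 150 CPM in 3A, against 443, 356 and 448 CPM in EV (-1.43 ± 0.11, edgeR adjusted p = 1.52e-07). SESN2, an inhibitor of mTORC1 that senses leucine, had 49.5, 47.9 and 41.9 CPM in 3A, against 115, 95.4 and 104 CPM in EV (-1.18 ± 0.11, edgeR adjusted p = 1.58e-06). STC2, a secreted glycoprotein, had 80.1, 74.1 and 82.6 CPM in 3A, against 178, 147 and 150 CPM in EV (-1.0 ± 0.10, edgeR adjusted p = 1.58e-06). The 3A libraries were all low and close together, and EV library 2 was the lowest of its group. CHAC1, which breaks down glutathione, had 19.4, 11.6 and 18.4 CPM in 3A, against 57.5, 37.1 and 54.8 CPM in EV (-1.60 ± 0.22, edgeR adjusted p = 5.00e-05). DDIT3, which encodes the stress factor CHOP, had 13.3, 12 and 15.3 CPM in 3A, against 42.3, 35.1 and 41.9 CPM in EV (-1.55 ± 0.16, edgeR adjusted p = 2.72e-06), and 39.6% of its exon bases overlap another gene. The RNA of ATF4 itself averaged 360 ± 45.7 CPM in 3A and 692 ± 85.9 CPM in EV (SD, n = 3 each; -0.94, edgeR adjusted p = 4.74e-05).

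The members cover several steps of amino acid supply. The serine synthesis enzymes PHGDH (-0.53) and PSAT1 (-0.81) were lower, as were the mitochondrial folate enzymes SHMT2 (-0.44) and MTHFD2 (-0.47), the cystine transporter SLC7A11 (-0.76) and its heavy chain SLC3A2 (-0.75). ASNS, the asparagine synthetase, averaged 11.9 ± 3.2 CPM in 3A and 20.9 ± 3.49 CPM in EV (SD, n = 3 each; -0.81, edgeR adjusted p = 0.00532), and 44.6% of its exon bases overlap another gene. The members without a call were the stress protein NUPR1 (-0.79, edgeR adjusted p = 0.0550), the last enzyme of serine synthesis, PSPH (-0.24), and the lipoprotein receptor VLDLR (0.06). Leaving out any 1 library left 15 to 17 called lower. Beyond the list, 7 of 20 cytosolic aminoacyl-tRNA synthetases were lower and 0 higher (median -0.20), namely those for serine, cysteine, tryptophan, tyrosine, methionine, glycine and alanine, at -0.67 for SARS to -0.36 for AARS. Of 17 mitochondrial synthetases 0 were called by edgeR, with 5 at an unadjusted p under 0.05, and 2 were called higher by DESeq2 or with the replicate block. Of 18 plasma membrane amino acid transporters 10 were lower and 0 higher (median -0.40). SLC6A9, a glycine transporter, had 31.0, 26.0 and 23.8 CPM in 3A, against 72.8, 73.4 and 70.3 CPM in EV (-1.42 ± 0.10, edgeR adjusted p = 4.28e-08). SLC1A5, the glutamine carrier, had 233, 204 and 224 CPM in 3A, against 385, 337 and 374 CPM in EV (-0.73 ± 0.09, edgeR adjusted p = 3.37e-05). The synthetase and transporter lists were put together after the values had been seen. Of the enzymes of serine, glycine and folate metabolism 5 of 16 were lower and 2 were higher, or 6 and 4 with the replicate block. TYMS (1.02), which makes thymidylate for DNA, was higher and is a member of the replication list too.

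TGATGNAA, the letters of an element that ATF4 binds together with a C/EBP partner, occurred in 1.39% of all promoters in the table, in 1.88% of those of genes called higher, in 3.99% of those called lower and in 3 of the 16 promoters of the ATF4 list. The promoters of CHAC1 (chr15:40953221-40953470, plus strand) and ASNS (chr7:97872409-97872658, minus strand) are shown as 2 of the 3 with a match, the other being ATF3, with its letters in capitals.
CHAC1: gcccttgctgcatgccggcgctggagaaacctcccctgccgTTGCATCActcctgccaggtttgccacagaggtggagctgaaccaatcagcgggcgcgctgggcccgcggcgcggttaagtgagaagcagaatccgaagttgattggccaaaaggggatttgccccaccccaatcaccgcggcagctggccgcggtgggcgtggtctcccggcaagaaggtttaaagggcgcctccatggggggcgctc
ASNS: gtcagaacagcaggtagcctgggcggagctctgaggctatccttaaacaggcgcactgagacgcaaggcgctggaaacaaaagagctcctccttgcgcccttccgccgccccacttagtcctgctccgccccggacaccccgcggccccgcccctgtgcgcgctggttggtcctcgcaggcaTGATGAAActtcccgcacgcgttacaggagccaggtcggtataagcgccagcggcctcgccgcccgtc
The match in CHAC1 is on the other strand and begins 209 bases before the start, and that in ASNS begins 68 bases before it.

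**Figure D3:**
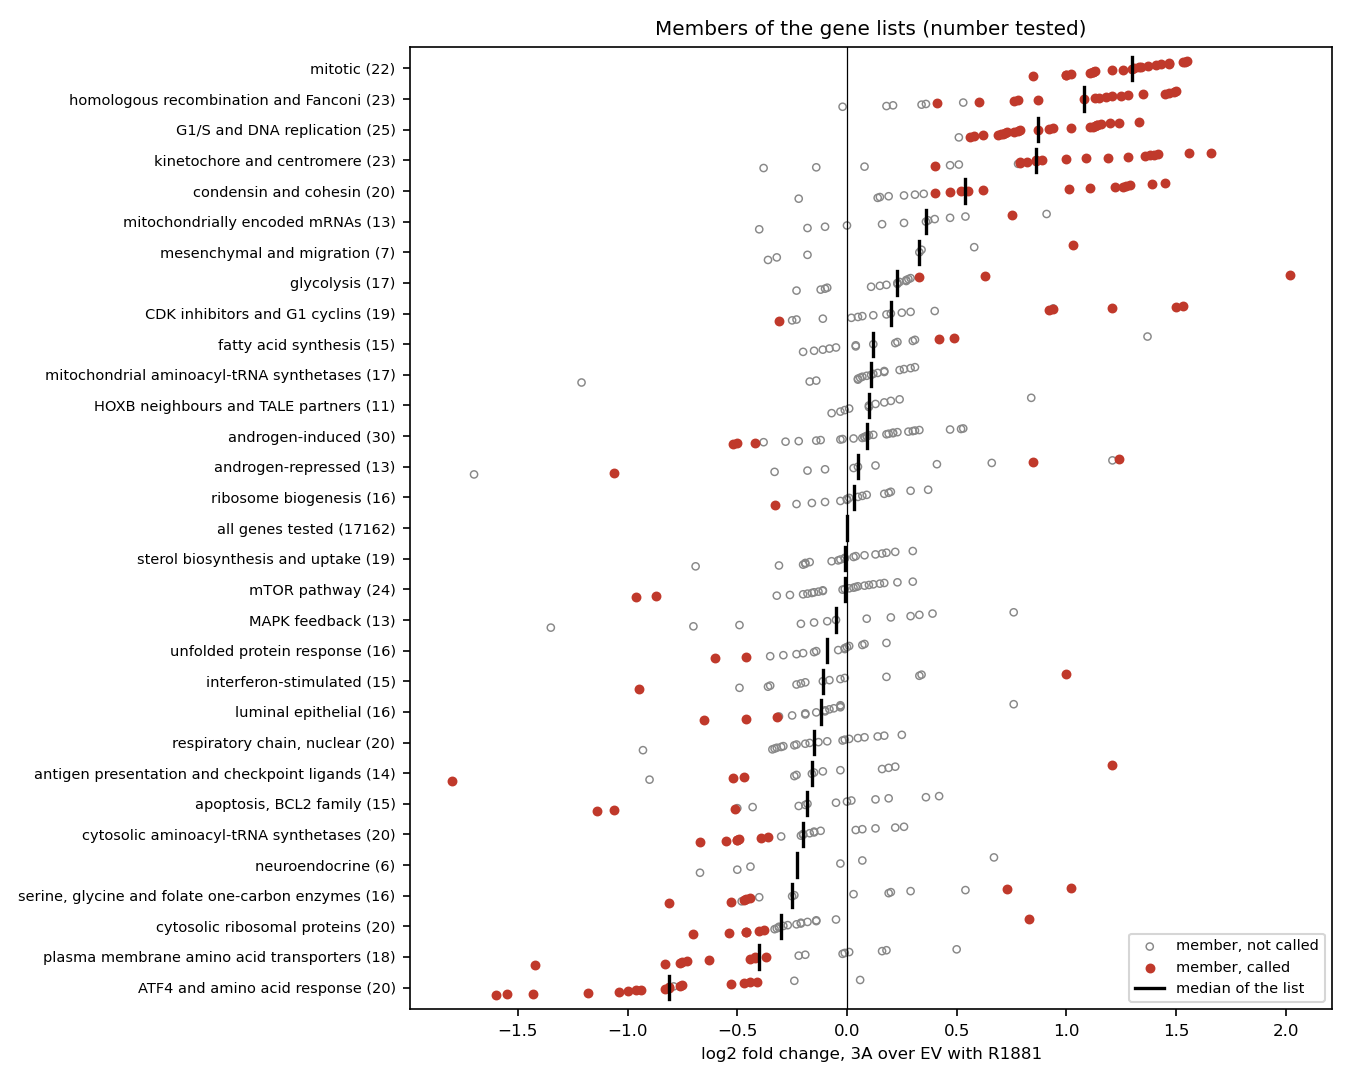
Log2 fold change of 3A over EV with R1881 (horizontal axis) for each tested member of the gene lists, ordered by the list's median, with all genes tested as a line of its own that shows the median alone. Filled points are members called by edgeR, open points are members without a call, and the bar is the median. The mitotic list (1.30) stands at the top and the ATF4 list (-0.81) at the bottom, while the androgen-induced list is near 0.

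Genes that androgen induces or represses were read next. Of 30 androgen-induced genes 0 were called higher and 3 lower, with a median of 0.09 and a range of -0.52 to 0.53. With the replicate block 2 were higher and 4 lower. KLK4, a kallikrein protease, had 133, 142 and 137 CPM in 3A, against 192, 215 and 186 CPM in EV (-0.52 ± 0.09, edgeR adjusted p = 0.000738). PMEPA1, an inhibitor of TGF-beta signalling, had 402, 371 and 367 CPM in 3A, against 532, 571 and 509 CPM in EV (-0.50 ± 0.11, edgeR adjusted p = 0.00424). SLC45A3, the prostate transporter prostein, had 838, 906 and 735 CPM in 3A, against 1130, 1150 and 1030 CPM in EV (-0.42 ± 0.09, edgeR adjusted p = 0.00706). In all 3 the groups were separate, as in nearly all genes called lower, and the 3 calls held without any 1 library. KLK3, which encodes prostate-specific antigen, averaged 3630 ± 438 CPM in 3A and 4730 ± 329 CPM in EV (SD, n = 3 each; -0.38, edgeR adjusted p = 0.274). The co-chaperone FKBP5 was at 0.03 and the fusion partner TMPRSS2 at -0.28, neither of them called. Of the 13 androgen-repressed genes tested, 2 were higher and 1 lower, with a range of -1.70 to 1.24. The value of -1.70 was that of MET, which was not called and had few reads (0.0758 CPM in 3A and 0.255 CPM in EV). BCHE, a cholinesterase, was higher (0.85). The calls of UGT2B28, a glucuronidation enzyme with close copies (1.24), and of OPRK1, an opioid receptor (-1.06), were lost without EV library 1 or 3 or 3A library 1.

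Several other lists held no call. Of 19 sterol genes, 13 MAPK feedback genes, 11 HOXB neighbours and TALE partners, 20 nuclear respiratory chain genes and 6 neuroendocrine genes tested, 0 were called by edgeR. At an unadjusted p under 0.05 there were 2, 3, 1, 6 and 3 such genes in the lists in that order. DESeq2 called 1 MAPK and 2 respiratory chain genes lower and 1 respiratory chain gene higher. With the replicate block 2 sterol, 1 MAPK and 3 respiratory chain genes were lower, and 1 respiratory chain and 1 neuroendocrine gene were higher. In the mTOR pathway 2 of 24 genes were lower, namely DDIT4, an inhibitor of mTORC1 that ATF4 also induces (-0.96), and EIF4EBP1, a translation repressor (-0.87), whose call was lost without 3A library 2. With the block 2 were higher and 3 lower. Of 16 unfolded protein response genes, HERPUD1 (-0.60) and XBP1 (-0.46) were lower, while the chaperone HSPA5 was at -0.00. In the BCL2 family BBC3, known as PUMA, had 7.0, 7.26 and 5.41 CPM in 3A, against 15.2, 13.1 and 14.9 CPM in EV (-1.14 ± 0.17, edgeR adjusted p = 0.00014). BCL2L2 was lower as well (-0.51), and the call of HRK (-1.06) was lost without all but 1 of the libraries. Of 20 cytosolic ribosomal protein genes 6 were lower and 1 higher with a median of -0.30, and 10 were lower with the block. The lower ones with the smallest adjusted p were RPL10A (-0.38), RPL35 (-0.70) and RPS2 (-0.54). Of the 50-base windows of RPL10A and RPS2, 33.7% and 52.6% also occur in other transcripts, so their levels are uncertain. The higher one, RPS23, had 172, 225 and 309 CPM in 3A, against 120, 134 and 142 CPM in EV (0.83 ± 0.19, edgeR adjusted p = 0.00881). RPS23 was no longer called when EV library 1 or 3A library 3 was left out. Between 2 and 6 were lower without 1 library, with 3, 2 and 2 without EV library 1, EV library 3 and 3A library 2. Mitochondrially encoded RNA was 3.06%, 4.64% and 5.15% of the counts in 3A, against 3.61%, 4.09% and 4.24% in EV, and 1 of 13 such mRNAs was called, MT-ND4L (0.75), a call lost without EV library 1 or 3 or 3A library 2 or 3. With the block 5 were called higher, and without 3A library 1 it was 4.

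Lists of metabolism, cell identity and immunity completed the set. In glycolysis 3 of 17 genes were higher, or 7 with the replicate block. They were ALDOA, the lactate dehydrogenase subunit LDHA (0.63) and the kinase PGK1 (0.33), and 6 genes were called without 3A library 1 but only 1 without EV library 1 or 3A library 3. In fatty acid synthesis ELOVL6 (0.49) and FADS1 (0.42) were called higher, 4 members with the block and 0 without EV library 1 or 3 or 3A library 2 or 3. Among 16 luminal epithelial genes the tight junction protein CLDN7 was lower, with 217, 194 and 187 CPM in 3A against 314, 315 and 309 CPM in EV (-0.65 ± 0.10, edgeR adjusted p = 0.000236). The splicing factor ESRP1 was lower as well (-0.46), and so was the transcription factor SPDEF (-0.32), a call kept only without EV library 1. The keratins KRT8 (-0.03) and KRT18 (-0.19) were not called, and with the block 1 member was higher and 5 lower. Among antigen presentation genes CD274, which encodes the checkpoint ligand PD-L1, had 2.66, 3.47 and 3.25 CPM in 3A, against 1.44, 1.21 and 1.40 CPM in EV (1.21 ± 0.23, edgeR adjusted p = 0.00164). HLA-C (-0.47) and HLA-B (-0.52) were lower, the second call being lost without EV library 2 or 3A library 3. Of the interferon-stimulated genes OAS3, an antiviral sensor, was higher (1.0), and IFIT2 (-0.95) was called lower but kept its call only without 3A library 2. The single calls in the ribosome biogenesis list (RRP12, -0.33) and the mesenchymal list (LOX, 1.03) were each kept in only 1 of the 6 fits that left out a library.

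The same contrast was measured in vehicle in 6 other libraries. There 682 genes were higher in 3A (3.97%) and 562 lower (3.27%). The number higher was 442 without EV library 3. The number lower was 325, 309, 345 and 320 without EV library 1, EV library 3, 3A library 2 and 3A library 3. Of the genes called higher with R1881, 405 were also called higher in vehicle, which is 53.7% of the R1881 list and 59.4% of the vehicle list. Of those called lower with R1881, 289 were lower in vehicle, 41.5% of the R1881 list and 51.4% of the vehicle list. None was called in opposite directions (0 in each direction). The log2 fold changes of the 2 treatments had a Pearson correlation of 0.44 across 17162 genes, which are not independent replicates. Of the genes called with R1881, 96.9% had the same sign in vehicle, beside 67.7% of all genes tested. Of the 22 mitotic genes 22 were higher in vehicle (median 1.34), of the 25 replication genes 24 (median 1.04), and of the 20 ATF4 genes 17 were lower (median -0.89). Of the 30 androgen-induced genes 4 were higher and 1 lower in vehicle (median 0.16). All 15 of the largest falls with R1881 were called lower in vehicle, and 10 of the 15 largest rises were called higher there. LPO had 0.975, 1.24 and 1.46 CPM in 3A, against 4.42, 4.36 and 3.38 CPM in EV in vehicle (-1.73, edgeR adjusted p = 4.29e-05).

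**Figure D4:**
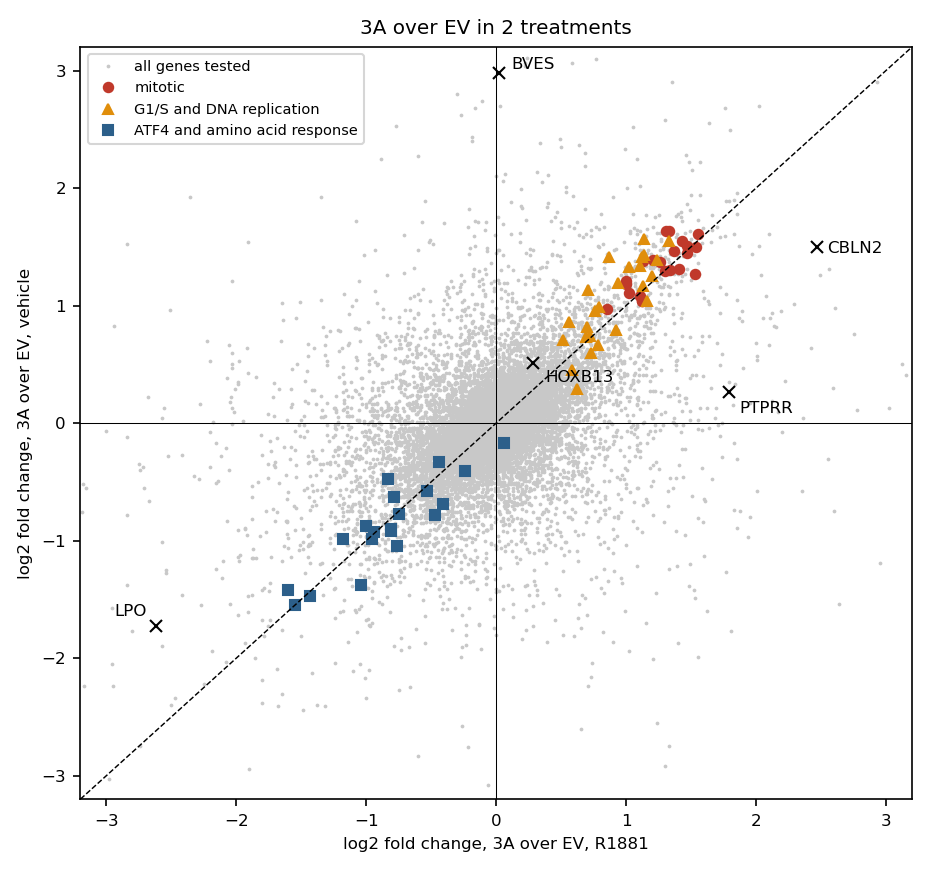
Log2 fold change of 3A over EV with R1881 (horizontal axis) and in vehicle (vertical axis) for all genes tested in grey, and for the mitotic, replication and ATF4 lists in colour; the dashed line marks equal values, and 58 genes lie outside the drawn range of 3.2. The members of the 3 lists lie near the line, while BVES and PTPRR lie far from it.

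The difference between the treatments was itself tested. It was called by edgeR for 2 genes (0.0117%), with 1072 genes at an unadjusted p under 0.05. PTPRR (ENSG00000153233, chromosome 12, 70638073 to 70920843, minus strand) had in vehicle 25.2, 18.5 and 19.9 CPM in 3A, against 17.7, 16.5 and 19.0 CPM in EV, where the groups overlap (0.26, edgeR adjusted p = 0.342). Its 3A to EV difference was larger with R1881 by 1.53 (edgeR adjusted p = 0.0154). BVES, which encodes a membrane protein that binds cyclic AMP (ENSG00000112276, chromosome 6, 105096822 to 105137174, minus strand), had with R1881 1.51, 2.08 and 3.50 CPM in 3A, against 1.89, 2.88 and 2.28 CPM in EV, which overlap. In vehicle it had 17.3, 22.3 and 16.3 CPM in 3A, against 3.45, 2.25 and 1.48 CPM in EV. The 3A to EV difference of BVES was smaller with R1881 than in vehicle by the interaction (-2.95, edgeR adjusted p = 0.00788). Both calls were lost in 1 or more of the fits that left out 1 library. That of BVES was lost without EV library 2 with R1881 (-2.79, edgeR adjusted p = 0.0922). That of PTPRR was lost without EV library 2 or 3 or 3A library 2 with R1881, or EV library 1 or 3 or 3A library 2 or 3 in vehicle, at values of 1.43 to 1.52 (edgeR adjusted p of 0.0552 to 0.128). The number of genes called was 0 without EV library 2 with R1881, 6 without 3A library 1 with R1881 and 4 without 3A library 1 in vehicle. It was 1 without each of the other libraries that ended the call of PTPRR. It was 7 by DESeq2, 6 with the replicate block and 62 with no filter on low counts.

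WT against EV with R1881 uses the same EV libraries, so its values are only set beside those of 3A. Of all genes tested, 4.66% were called higher and 4.04% lower in WT against EV. In that contrast 22 of the 25 replication genes were called higher (median 0.61) and 13 of the 22 mitotic genes (median 0.72), and 2 of the 20 ATF4 genes were lower and 1 higher (median -0.17). Of the 30 androgen-induced genes 2 were higher and 12 lower in WT against EV (median -0.33). TRIB3 was at -1.43 in 3A against EV and -0.37 in WT against EV. CHAC1 was at -1.60 in 3A against EV and -0.22 in WT against EV, and CD55 at -1.80 in 3A against EV and 0.33 in WT against EV. CBLN2 was at 2.47 in 3A against EV and 3.50 in WT against EV. In 3A against WT, which shares the 3A libraries, 1.41% of all genes tested were called higher and 1.77% lower. There 14 ATF4 genes were lower (median -0.78), 10 mitotic genes were higher (median 0.65), and the replication list had a median of 0.24. Among the androgen-induced genes 8 were higher and 2 lower in 3A against WT (median 0.39). The tests of 3A against WT gave -1.06 for TRIB3 (edgeR adjusted p = 9.98e-06), -2.13 for CD55 (edgeR adjusted p = 2.13e-06) and -1.03 for CBLN2 (edgeR adjusted p = 5.90e-05). Of the 15 largest rises 9 were called higher in WT against EV, and of the 15 largest falls 2 were called lower.

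The change with R1881 moved with the base composition of genes. Across 17153 genes with a GC value, the log2 fold change of 3A over EV had a Pearson correlation of -0.247 and a Spearman correlation of -0.37 with the GC content of the exons. In vehicle the Pearson correlation was -0.049. With the log2 length of genes the Spearman correlation was 0.179 with R1881 and 0.188 in vehicle, so a trend with length was present in both treatments. In the 10% of genes with the lowest GC content (23.1% to 39.8%) the median log2 fold change was 0.202, with 10.7% of genes called higher and 0.466% lower. In the 10% with the highest GC content (61.7% to 86.4%) it was -0.219, with 1.17% higher and 9.56% lower. Every step between them went down. By library, the median deviation of the lowest-GC genes from the mean of the 6 libraries was 0.0664, 0.0843 and 0.183 in 3A, against -0.0287, -0.122 and -0.141 in EV. For the highest-GC genes it was -0.142, -0.0222 and -0.13 in 3A, against 0.0524, 0.15 and 0.131 in EV. The groups did not overlap at either end, and EV library 1 was nearest to 0 of its group at both ends.

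**Figure D5:**
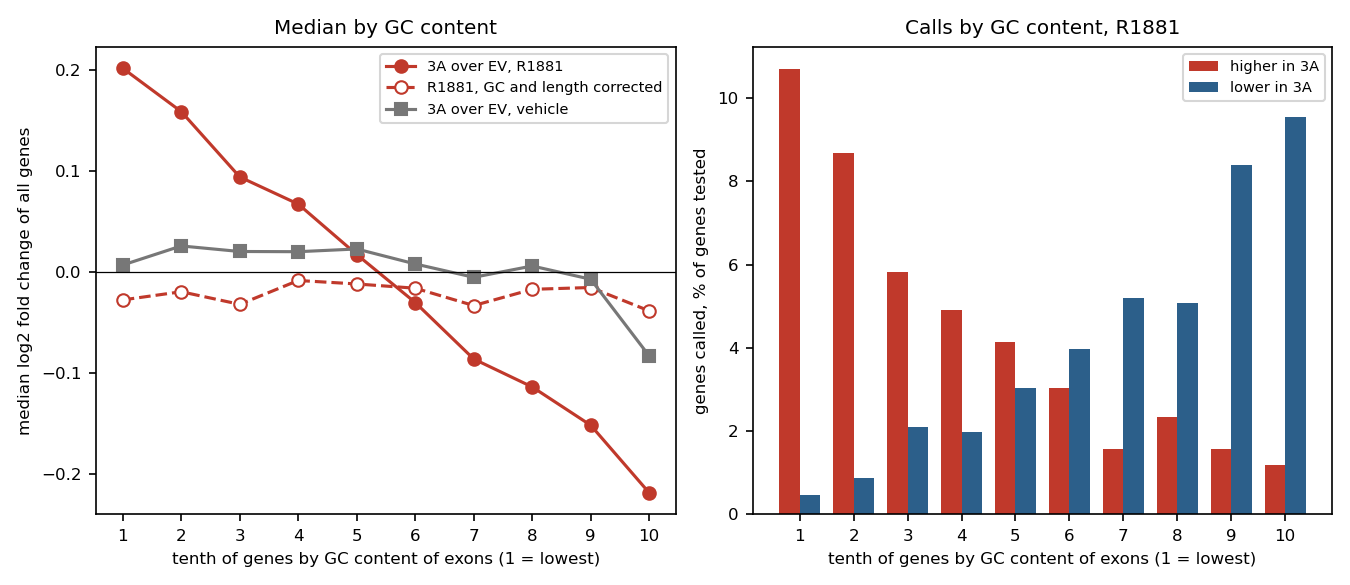
Left, median log2 fold change of 3A over EV in 10 groups of genes of equal size ordered by GC content of exons, with R1881 (filled circles), with R1881 after the GC and length correction (open circles) and in vehicle (squares). Right, percent of the genes in each group called higher or lower in 3A with R1881; calls higher in 3A fall off and calls lower in 3A rise with GC content.

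Gene groups followed that trend to different degrees, and its part in each was not tested apart from the correction. The mitotic list has a mean GC content of 45.3%, the replication list 49.7% and the ATF4 list 53.3%, beside 50% over all genes tested. With the correction for GC content and length 669 genes were higher (3.9%) and 699 lower (4.07%). Of the original calls 539 of 754 higher and 465 of 697 lower genes were called again, and 0 changed sign. The corrected counts were 21 of 22 for the mitotic list (median 1.23), 24 of 25 for replication (median 0.86) and 17 of 20 lower for ATF4 (median -0.80). All 15 largest rises and all 15 largest falls were called after the correction. The cytosolic synthetases went to 11 of 20 lower, with EPRS (-0.46), IARS (-0.35), NARS (-0.26) and TARS (-0.28) added, and the transporters to 7 of 18 lower. Some genes named above lost their call, among them LDHA (0.51), PGK1 (0.20), ELOVL6 (0.33) and SPDEF (-0.10). The calls of RPL10A (-0.21), HLA-B (-0.37), RRP12 (-0.24) and LOX (0.86) were lost too, while ALDOA, FADS1, CLDN7, ESRP1 and HLA-C kept theirs. The cytosolic ribosomal protein genes went to 4 lower and 1 higher. Chromosomes and gene classes of like GC content differed in their calls. On chromosome 19, where the tested genes have a mean GC content of 55.6%, 2.85% of 1194 genes were higher and 7.71% lower. On chromosome 22, with the same mean of 55.6%, 1.99% of 453 genes were higher and 3.97% lower, and on chromosome 16, with 54.7%, 2.33% of 816 genes were higher and 3.92% lower. Of 999 lincRNA genes 0.4% were higher and 5.31% lower, beside 5.34% and 4.24% of the protein-coding genes. Their mean GC content of 48.0% is below that of all genes tested, so the lincRNA genes ran against the trend. A fall was not particular to them: the median log2 fold change was -0.16 for lincRNA genes and -0.19 for antisense genes. For sense-overlapping genes it was 0.16.

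Runs of neighbouring genes called in one direction were few. There were 9 runs of at least 3 tested genes. The longest, on chromosome 8 from 23841915 to 24957110, held STC1, ADAM7, AC024958.1 and the neurofilament gene NEFL (0.51), all higher. On chromosome 18 from 72536680 to 72868146, NETO1, an auxiliary subunit of glutamate receptors (0.41), and AC023301.1 (0.93) were higher beside CBLN2. On chromosome 16 from 70219574 to 70289543, SMG1P7 (-1.65), the exosome subunit EXOSC6 (-0.70) and AARS (-0.36) were lower. On chromosome 17 from 59109951 to 59204705, the spindle gene SKA2 (0.56), PRR11 (1.07) and AC099850.3 (1.23) were higher. On chromosome 5 from 138178719 to 138338355, KIF20A (1.55), CDC23 (0.32) and the phosphatase CDC25C (1.29), all genes of mitosis, were higher. Runs of equal length were lower on chromosome 19. They held RINL (-0.71), SIRT2 (-0.41) and NFKBIB (-0.56), and FIZ1 (-0.40), ZNF524 (-0.66) and ZNF865 (-0.46). Higher runs held NRM, MDC1 and TUBB on chromosome 6, and ZFX, PDK3 and AC004656.1 on chromosome X.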

How the data were processed

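RNA was measured in 18 libraries, prepared with the NEBNext Ultra II kit and read as paired ends on a NovaSeq instrument, per the labels' protocols; 6 of them make the comparison described above. The authors deposited gene counts, 1 whole number per gene and library. Reads were aligned with HISAT2 2.0.5 to hg38 and counted with featureCounts 1.5.0-p3, per the submitters' processing notes; which annotation, which strandedness option and which rule for multi-mapping reads were used is not given in the sources used here. Overlapping and near-identical genes can therefore share reads. Among genes named above without a mark, exons of TYMS (46.6% of bases), DDIT4 (41.2%), MTHFD2 (33.2%) and NCAPG (33.1%) overlap another gene. Of the 50-base windows of BCL2L2, 33.7% also occur in other transcripts. The levels of these genes are uncertain too.

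Columns were matched to samples by name. Genes were kept by edgeR's filter (a count of 10 and a total of 15), scaled by TMM and fitted over all 18 libraries in 6 groups with edgeR 4.0.16 (R 4.3.3) by the quasi-likelihood test, with Benjamini-Hochberg adjustment over the 17162 genes tested; the procedure was tested on simulated data. Coordinates, exon overlap and GC content came from a GENCODE annotation of the hg38 genome, matched by gene ID. GC content and length were corrected with splines of 5 degrees of freedom. DESeq2 1.42.0, other scalings and filters, a replicate block and leaving out each library were alternatives. The rule for named genes took HOXB13; the 15 protein-coding genes called in each direction with the largest change, a mean of at least 1 CPM over the 6 libraries and no overlap between groups; up to 5 genes in each direction called for the difference between treatments; up to 4 members of each list with the smallest adjusted p; and each gene of a count of 5 or fewer. It was not printed in full: lists without a call, and some lists with calls, have fewer or no members named. Other list members, and runs beyond the 5 with most genes, were named after their values were seen. A few genes, and lists that turn on them, are not reported here. Members and lists were chosen with earlier results of these data known.

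Same-numbered 3A and EV libraries with R1881 deviated together weakly, with correlations of 0.105, 0.154 and 0.107 across genes. Different numbers gave -0.102 to -0.0115, but deviations from a group mean cancel within the group, so these values are no separate evidence. Same-numbered 3A and EV libraries in vehicle did not all deviate together (0.14, -0.141 and 0.0243). The EV libraries in vehicle did so with the EV libraries of the same number with R1881 (0.163, 0.198 and 0.163). 3A library 3 in vehicle deviated more with library 2 of 3A with R1881 (0.241), EV with R1881 (0.138) and EV in vehicle (0.184). The block in vehicle, which goes by number, may thus not match the 3A libraries. This was not tested. The pairing comes from these correlations and the shared numbers; what a number denotes is not stated in the labels.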

Additional observations from a re-analysis of the deposited data

Results flagged for a closer look

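The 3A to EV difference of PTPRR was larger with R1881 than in vehicle by 1.53 on the log2 scale (edgeR interaction test, adjusted p = 0.0154). The test of the difference between the treatments brought it here, with a change of 1.79 with R1881 and of 0.26 in vehicle. With R1881 all 3 3A libraries were above all 3 EV libraries, as the rule for the largest rises required.

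For BVES the same test gave -2.95 (edgeR adjusted p = 0.00788), with a change of 0.02 with R1881 and of 2.98 in vehicle.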

How the results depend on the processing

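With R1881 the replicate block gave 1252 genes higher and 1157 lower, against 754 and 697 without it, and the correction for GC content and length with the block gave 1084 lower. In vehicle the block gave 1097 higher and 975 lower, against 682 and 562 without it. The correction in vehicle gave 888 higher and 833 lower without the block, and 1228 and 1283 with it. Same-numbered 3A and EV libraries in vehicle did not all deviate together. Leaving out 1 library gave 418 to 662 higher and 367 to 765 lower genes with R1881, and 442 to 552 higher and 309 to 551 lower genes in vehicle. With no filter on low counts 773 genes were higher and 979 lower with R1881. The difference between the treatments was called for 2 genes, and for 7 by DESeq2, 62 with no filter, 7 with the comparison's libraries alone, 6 with the block, 6 with the correction and the block, and 0 to 6 without 1 library. The change of HOXB13 was called at 0.38 with the correction, with or without the block, and was 0.17 to 0.37 without 1 library. The uncalled change of BVES with R1881 (0.02) was -0.00 with no filter, -0.14 with the correction, -0.15 with the correction and the block, and -0.38 to 0.24 without 1 library. The uncalled change of POU3F2 (-0.44) was -1.48 to 0.13 without 1 library, and 0.13 without 3A library 3. The cause of these shifts was not tested. The trend with GC content was -0.242 with the longest transcript of each gene. With 3 libraries a group, and replicates that may be technical, the spread between cultures is unknown; genes near 1 CPM rest on few reads.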
